A study of Gallus gallus with 9 samples.

Results

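The genes described here are the cyclins, cyclin-dependent kinases, replication factors, centromere proteins and mitotic regulators measured in the circulating cells of the chick embryo. A gene was a member if its symbol in the array annotation began with CCNA, CCNB, CCND, CCNE, CENP, BUB, AURK or PLK, or with MCM, ORC, RFC, E2F, CDK or CDC followed by a digit, and CDC42 genes were left out. The rule used the symbols and no measured value to pick the genes, and it found 101 genes with 190 probe sets among 13009 gene symbols and 38439 probe sets. The rule and the role groups used below were nevertheless set with earlier results of these data known. Each gene was read from 1 probe set, the one with the highest mean log2 signal over the 8 blood arrays.

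Blood of chick embryos was drawn from the heart ventricles on embryonic day 4 (E4) or 6 (E6) and spun through a density gradient, which gave a lower, red blood cell fraction (RBC) and an upper fraction depleted of red cells (nRBC). Each of the 4 groups, E4 RBC, E6 RBC, E4 nRBC and E6 nRBC, had 2 arrays, and each array held the pooled RNA of many embryos. A single array of E6 heart, whose column in the deposited table is headed E4, stood beside them with no replicate. The fractions were defined by density and not by a marker, so an array averages over whatever cells its fraction held, and in such bulk samples fewer cells of a type and less RNA per cell cannot be told apart.

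A dividing cell passes through a fixed series of steps, each with its own genes in this list. D cyclins and their kinases release the E2F transcription factors from the retinoblastoma proteins in G1, and cyclin E carries the cell into S phase. The origin recognition complex (ORC) marks where replication starts, the MCM helicase is loaded there, CDC45 is part of the active helicase and the RFC complex loads the sliding clamp PCNA. Cyclin A and B with CDK1, the Polo-like and Aurora kinases, the CENP proteins of the centromere, the BUB proteins of the spindle checkpoint and the anaphase promoting complex (APC) with CDC20 then carry out mitosis. Primitive red cells of birds keep a nucleus, enter the circulation while they still divide, and stop dividing as they mature.

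The members fell into 7 groups by role. They were 15 G1 genes (D and E cyclins, their kinases and E2F factors), 20 genes of origin licensing, the helicase and the clamp loader, 8 A and B cyclins and mitotic kinases, 19 centromere proteins, 11 genes of the spindle checkpoint and the APC, 15 transcription-linked and other kinases, and 13 further genes that only the symbol placed in the list. The 4 groups from origin licensing to the spindle checkpoint, 58 genes in all, are called the replication and mitosis genes below. The symbols CDK2, CDK4, CCNB2, AURKA, CDC6, MCM4, MCM7 and CENPA were not analysed here, because none of the probe sets used carried them.

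Most of these genes were detected in both fractions. The detection call of the array software, "Present", was given on all 8 blood arrays for 64 of the 101 genes, on 1 to 7 arrays for 27 and on none for 10. The RBC arrays detected 66 to 79 of the members, the nRBC arrays 78 to 85 and the heart array 83. Among the 10 that were Present on no blood array were the E cyclin CCNE1, the germ-line A cyclin CCNA1, and CDC14A, CDC14B, CDC20B, CDK10, CDK12, CDK18, PLK3 and CDK5RAP2, and their signals have no level to compare.

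Several properties of the arrays bear on the results. Of all probe sets, 22.4 to 29.4% were Present on the RBC arrays, 34 to 36% on the nRBC arrays and 40.5% on the heart array. The signal of a bacterial transcript added to the RNA (dap) was 12 to 57.6 on the second array of E4 RBC, E6 RBC and E4 nRBC, against 1050 to 1600 on the other arrays but 1, and these 3 low-spike arrays also had 188 to 256 signals under 1 against 1167 to 2172. The exception was the first E6 nRBC array, with a dap signal of 5030 and a ratio of 3' to 5' signal of the EF1A control of 8.03, against 2.05 to 2.93 on the other 7 blood arrays. The same ratio of the GAPDH control moved with the fraction, at 9.44 to 11.1 on the RBC arrays and 4.22 to 5.99 on the nRBC arrays but the first of E6, where it was 12.7, and its part in the differences between the fractions was not tested. Of the 8 red cell markers measured, including SLC4A1 and EPB42, 0 were called between the fractions (limma, adjusted p under 0.05). EPB42 alone had an unadjusted p under 0.05 in limma, with a log2 difference of -1.15. The globins HBE and HBZ differed by 0.13 and -0.06, and all the other red cell markers were lower in nRBC, from -1.43 for SPTB to -0.67 for SLC4A1. The globin signals lay between 12.97 and 13.53 on every blood array, and whether the arrays resolve a difference at such levels was not tested. By quantitative PCR the study found hemoglobin transcripts significantly higher in RBC, so equal array signals are not read as equal globin RNA. Their summed level, the log2 of their summed signals, to which the globins add most, was 15.15 to 15.41 in RBC and 14.76 to 15.36 in nRBC. The 15.36 was that of the first E6 nRBC array, against 14.76 to 14.88 on the other nRBC arrays. Called higher in nRBC at the same threshold were 6 of 7 thrombocyte and leukocyte markers, 4 of 6 endothelial, 6 of 6 fibroblast and 6 of 9 cardiac muscle markers. Of all probe sets 4.56% were called higher.

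**Figure D1:**
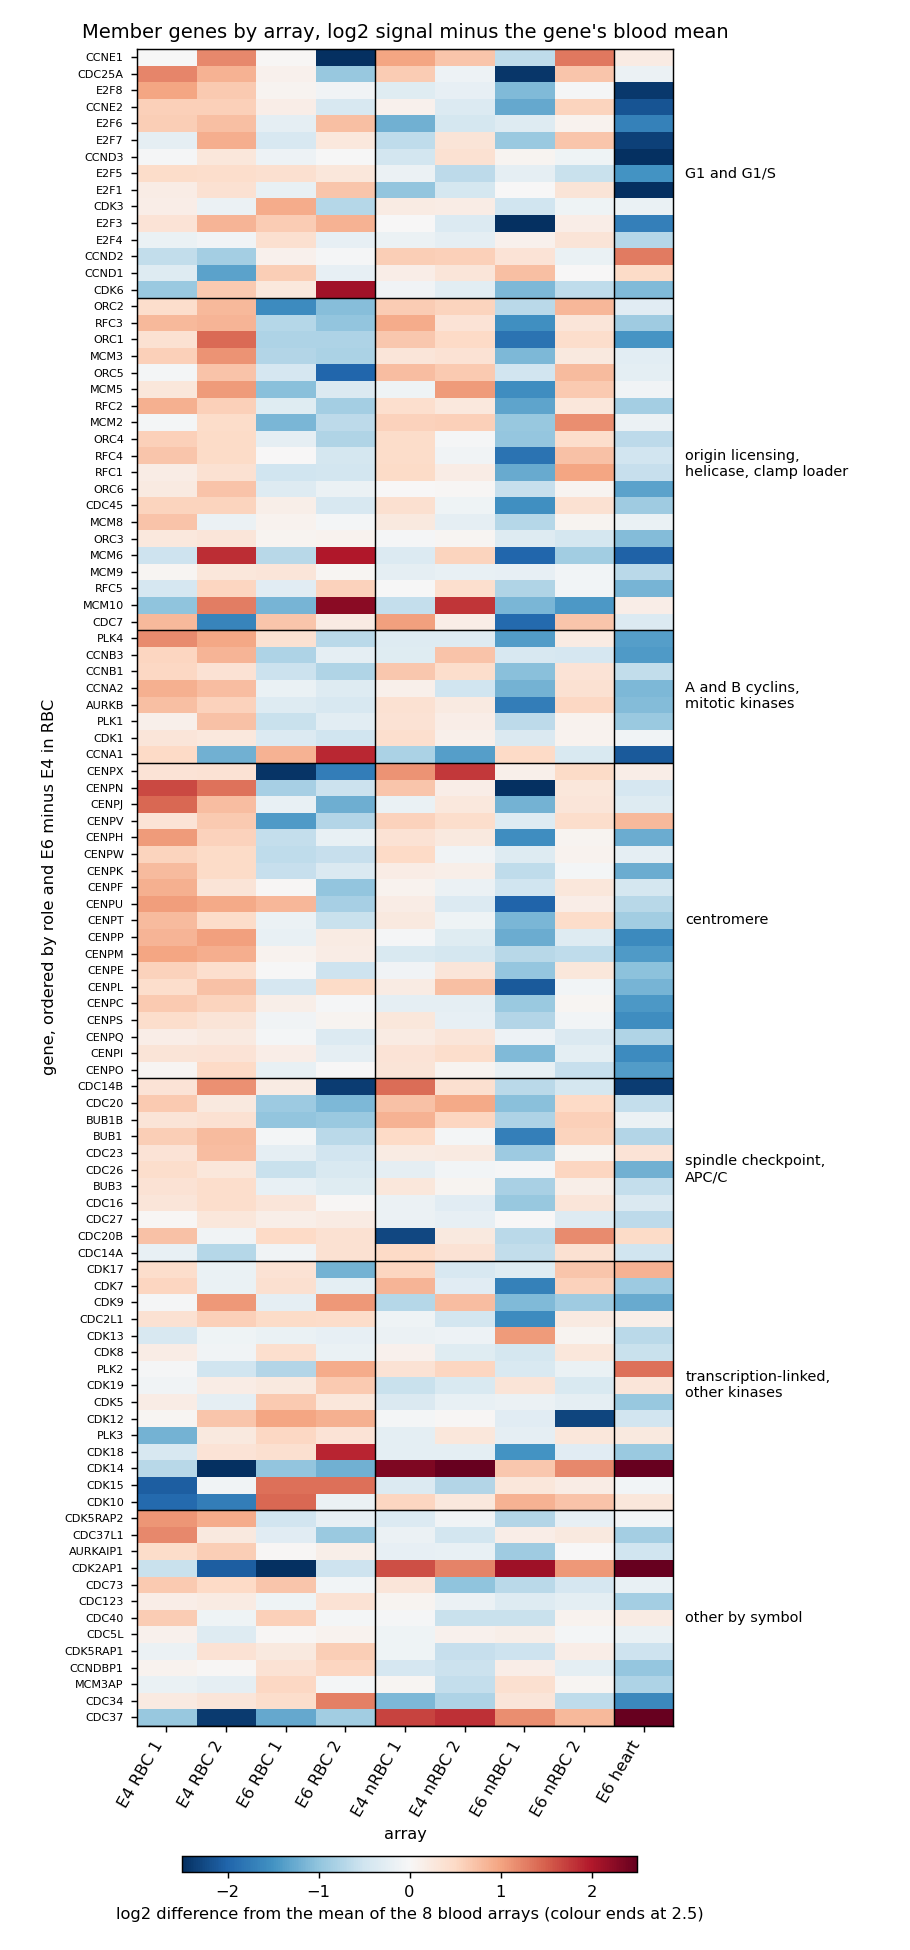
Log2 signal of each member (rows, grouped by role) on each array (columns), minus the gene's own mean over the 8 blood arrays, with red above and blue below that mean. In the 4 groups from origin licensing to the spindle checkpoint both E6 RBC arrays and the first E6 nRBC array are the low columns of the blood, and the second E6 nRBC array is not.

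The fractions were compared to ask which of these genes were higher in the cells other than red cells. Only 3 of the 101 genes were higher in nRBC and 0 were lower with both stages together (limma, 4 against 4 arrays, Benjamini-Hochberg adjusted p under 0.05), against 4.56% of all probe sets called higher and 0.809% called lower. These shares are 1753 and 311 probe sets, and without quantile normalization 1456 were higher and 43 lower. At an unadjusted p under 0.05 the members were 4 higher and 6 lower, beside 10.2% of all probe sets higher and 9.39% lower. The 3 genes were CDC37, CDK2AP1 and CDK14, and none of them is a part of the replication or mitotic machinery. All 3 were Present on 4 of 4 nRBC arrays and on 0 of 4 RBC arrays.

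CDC37, a co-chaperone that passes protein kinases to HSP90, had log2 signals of 3.66 and 2.22 on the E4 RBC arrays, 3.32 and 3.73 on E6 RBC, 6.30 and 6.44 on E4 nRBC, 5.77 and 5.42 on E6 nRBC and 8.35 in the heart. The lowest nRBC array thus lay above the highest RBC array by more than the spread of either fraction (RBC 3.23 ± 0.70, nRBC 5.98 ± 0.47, SD, n = 4). The difference was 2.75 (SE 0.45, adjusted p = 0.00785, limma). Since no RBC array detected it, its size is given as a bound, the nRBC mean against the higher of the gene's own signal and the lowest Present signal of each RBC array: it was at least 6.38-fold higher in nRBC.

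CDK2AP1, a small protein that binds CDK2 and restrains it, had log2 signals of 4.89 and 3.40 on E4 RBC, 2.53 and 4.93 on E6 RBC, 7.06 and 6.70 on E4 nRBC, 7.57 and 6.54 on E6 nRBC and 8.58 in the heart. It was at least 7.41-fold higher in nRBC (log2 difference 3.03, SE 0.59, adjusted p = 0.0179, limma). Its second probe set was also higher in nRBC, by 2.92 on the log2 scale (adjusted p = 0.0479, limma). The call of the first set was lost without the first E4 nRBC array (adjusted p = 0.0561) or the first E6 nRBC array (adjusted p = 0.0557), and narrowly in the limma fit of 4 group means (adjusted p = 0.0506).

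CDK14, a kinase that pairs with cyclin Y at the plasma membrane, had log2 signals of 4.09 and 0.72 on E4 RBC, 3.79 and 3.58 on E6 RBC, 7.11 and 7.49 on E4 nRBC, 5.46 and 5.98 on E6 nRBC and 8.18 in the heart. It was at least 8.08-fold higher in nRBC (log2 difference 3.46, SE 0.80, adjusted p = 0.0379, limma). The groups did not overlap, but the call was the least firm of the 3: leaving out either E6 RBC array or any of the 4 nRBC arrays raised the adjusted p to between 0.0514 and 0.113, and it was 0.0701 with the spike signal as a block. The other probe sets of CDC37 and CDK14 were not called, with log2 differences of -0.05 for CDC37 and of -1.24 and -0.78 for CDK14, and none of them was Present on an nRBC array.

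A further probe set of PLK2, a stress-responsive Polo-like kinase that acts outside mitosis, was higher in nRBC in the same way. Its log2 signals were 3.30 and 1.38 on E4 RBC, 0.95 and 0.03 on E6 RBC, 6.87 and 6.25 on E4 nRBC, 5.83 and 6.18 on E6 nRBC and 8.77 in the heart. It was at least 11.1-fold higher in nRBC (log2 difference 4.87, SE 0.66, adjusted p = 0.00281, limma), while the PLK2 probe set chosen for its mean signal differed by 0.17 (adjusted p = 0.873, limma). Of the 89 further probe sets of the members, 2 were called higher, this one and the second set of CDK2AP1, and 0 lower. Of all probe sets 4.56% were called higher and 0.809% lower, so these calls were no more frequent than the background.

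Signals of markers of other cells are given here beside these 4 probe sets, and whether they vary together from array to array was not tested. The heart had a higher signal than every blood array for all 4 probe sets. The summed level of the fibroblast markers (log2 of the summed signals) was 5.72 to 6.84 in RBC, 10.89 to 12.72 in nRBC and 14.36 in the heart. That of the endothelial markers was 5.85 to 6.72, 8.60 to 9.62 and 10.55, and that of the cardiac muscle markers 6.73 to 7.50, 10.02 to 12.14 and 15.79. The thrombocyte and leukocyte markers summed to 6.59 to 7.62 in RBC, 13.01 to 13.55 in nRBC and 9.36 in the heart. Of the single markers, 6 of the 7 thrombocyte and leukocyte, 6 of the 6 endothelial, 4 of the 6 fibroblast and 8 of the 9 cardiac markers were Present on no RBC array, and the others, SPI1, COL3A1, POSTN and TNNT2, were Present on 1 or 2. The single cardiac markers lay at -0.39 to 5.41 on the RBC arrays, and RYR2 was higher there than in nRBC (means 4.56 and 3.83, not called). Within the arrays of high and of low spike signal taken apart, the log2 differences were 2.34 and 3.47 for CDC37, 3.35 and 2.54 for CDK2AP1 and 2.24 and 5.34 for CDK14, higher in nRBC in each, and none passed in these 5 and 3 arrays (adjusted p from 0.101 to 0.535, limma). The part of these cell types in the differences of CDC37, CDK2AP1, CDK14 and PLK2 was not tested.

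**Figure D2:**
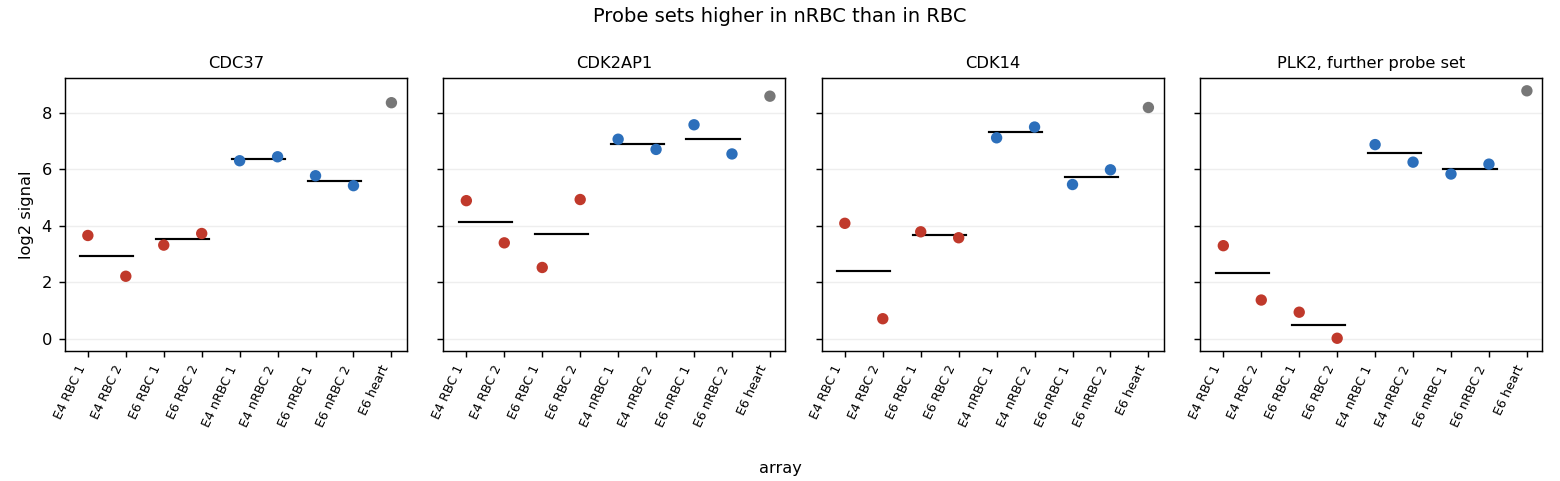
Log2 signals of CDC37, CDK2AP1, CDK14 and the called PLK2 probe set on each array, by group, with the mean of each group as a line. For all 4 the nRBC arrays lie above all RBC arrays and the heart array is the highest.

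With both stages together (limma, 4 against 4 arrays), none of the 58 replication and mitosis genes was called between the fractions. Of all probe sets 4.56% were called higher and 0.809% lower. At an unadjusted p under 0.05 the 58 genes were 1 higher and 1 lower, beside 10.2% and 9.39% of all probe sets. Their median log2 difference, nRBC minus RBC, was -0.21, beside -0.20 for all probe sets. The lowest adjusted p in this set was 0.141, for CENPM, a subunit of the inner centromere network, with 8.30 and 8.21 on E4 RBC, 7.40 and 7.49 on E6 RBC, 6.93 and 6.87 on E4 nRBC and 6.61 and 6.68 on E6 nRBC. Its 4 nRBC arrays lay below all RBC arrays, with a log2 difference of -1.08. CENPX, of the histone-fold complex at the centromere, went the other way, by 1.75 (adjusted p = 0.218, limma). The absence of calls depended on the setting. CENPX passed narrowly in the limma fit of 4 group means. In limma CENPM was called lower with an offset before log2 (adjusted p = 0.0285), a Present-call filter (0.032) or an intensity trend (0.0462). Without quantile normalization, with median scaling and in the series matrix, no replication or mitosis gene was called.

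Over all 101 members the median difference was -0.27, with 72 on the negative side (71.3%, beside 59% of all probe sets). Without quantile normalization the members' median was 0.12 and that of all probe sets 0.02. The arrays did not overlap for 3 genes higher in nRBC, 2.97% of the members against 7.97% of all probe sets. They did not overlap for 9 genes lower in nRBC, 8.91% of the members against 6.79% of all probe sets, a share near the background. The 9 were E2F3, E2F5, MCM9, ORC3, CENPM, CDC27, CDC2L1, CDK12 and AURKAIP1. CDC27 is an APC subunit, with a log2 difference of -0.33 and an adjusted p of 0.602 in limma. Other members with low p were PLK4, which drives centriole duplication (-0.92), CENPP (-0.95) and CENPC (-0.67) of the centromere, and CDC73 of the PAF1 elongation complex (-0.90), and none of them passed (adjusted p from 0.258 to 0.376, limma).

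**Figure D3:**
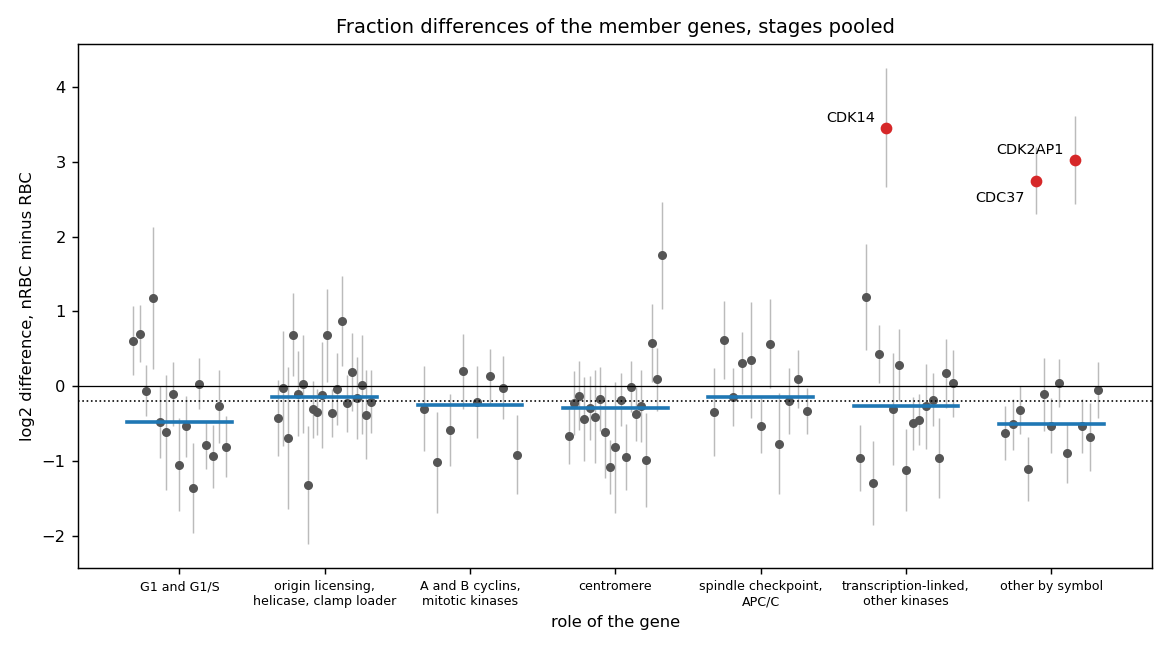
Log2 difference nRBC minus RBC of each member (limma, 4 against 4 arrays, bars show the SE), by role, with the median of each group in blue and that of all probe sets, -0.20, as a dotted line. Only CDC37, CDK2AP1 and CDK14, in red, pass the adjusted p of 0.05, and 72 of the members (71.3%) lie below 0, beside 59% of all probe sets.

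Within each stage, with 2 arrays against 2, no member was called. At E4, 0 members were called, beside 1.42% of all probe sets called higher and 0.0937% lower, and at an unadjusted p under 0.05 the members were 5 higher and 3 lower, beside 7.77% and 5.04% of all probe sets. The lowest adjusted p at E4 was 0.0514, for CDC37. At E6, 0 members were called, beside 1.57% higher and 0.109% lower, with 3 higher and 3 lower at an unadjusted p under 0.05, beside 8.60% and 5.83% of all probe sets, and a lowest adjusted p of 0.0925, for CENPX. The further PLK2 probe set was called at E6, where it was higher in nRBC by 5.52 on the log2 scale (adjusted p = 0.024, limma).

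The stages were compared to ask whether these genes were expressed less by E6. In limma no probe set of the array was called between E4 and E6 in either fraction, 0% of 38439, nor for the difference of the 2 stage changes, again 0%. At an unadjusted p under 0.05, 1419 probe sets were higher and 1639 lower at E6 in RBC, 892 higher and 804 lower in nRBC, and the difference of stage changes gave 1055 higher and 981 lower. The members were 2 higher and 8 lower in RBC, 0 and 0 in nRBC, and 0 and 1 for the difference. The stage results below are therefore values of 2 arrays against 2, with no gene passing the test, and the lowest adjusted p of a member was 0.301, for CENPX in RBC.

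In RBC, both E6 arrays lay below both E4 arrays for 47 of the 58 replication and mitosis genes (81.0%), where 19.7% of all probe sets did so. The opposite order was seen for 2 of them, CCNA1 and CDC14A, which were Present on no array. The 47 lower genes also included undetected ones, CDC14B, Present on no blood array, and ORC5, Present on no RBC array. Among the 42 that were Present on all 8 blood arrays, 38 were lower (90.5%), where 30.1% of all probe sets Present on those arrays were. The median log2 difference, E6 minus E4, was -0.92 for the 58 genes and 0.02 for all probe sets. Between the first arrays of each stage, of high spike signal, the median was -0.69, and between the second, low-spike arrays it was -0.95, with the 47 genes lower in both pairs by their definition. Without quantile normalization 40 of the 58 genes were lower, beside 13.9% of all probe sets, and with median scaling 43, beside 11.4%. Each E6 RBC array taken alone lay below the E4 mean, at a median of -0.79 for the first and -0.98 for the second. Of the further probe sets of these genes, 20 of 41 were lower and 2 higher, and of the 4 Present on all arrays 3 were lower. Signals of cell type markers were read on the same arrays: 5 of 9 cardiac markers (ACTC1, MYL2, MYL3, TNNC1 and TNNT2) lay lower on both E6 RBC arrays and 3 higher (MYH15, MYH7 and NPPA). Of the 6 fibroblast markers 2 lay lower (COL1A2 and DCN), of the 6 endothelial markers 1 lay lower (CDH5) and 1 higher (TEK), of the 7 thrombocyte and leukocyte markers 1 lay higher (RGS18), and of the 8 red cell markers 1 lay higher (ANK1, by 1.03). Among these named markers only TNNT2, on 1 RBC array, and ANK1, on all 4, were Present in RBC. The signals of the others have no level to compare, and the cardiac, fibroblast and endothelial sums below hold mostly undetected markers. The summed cardiac level was 7.12 and 7.50 on E4 RBC and 6.73 and 6.77 on E6 RBC, the fibroblast level 5.85 and 6.50 against 5.72 and 6.84, the endothelial level 6.12 and 5.85 against 6.72 and 6.21, and the red cell level 15.18 and 15.15 against 15.41 and 15.34. The part of these cells in the stage differences was not tested.

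**Figure D4:**
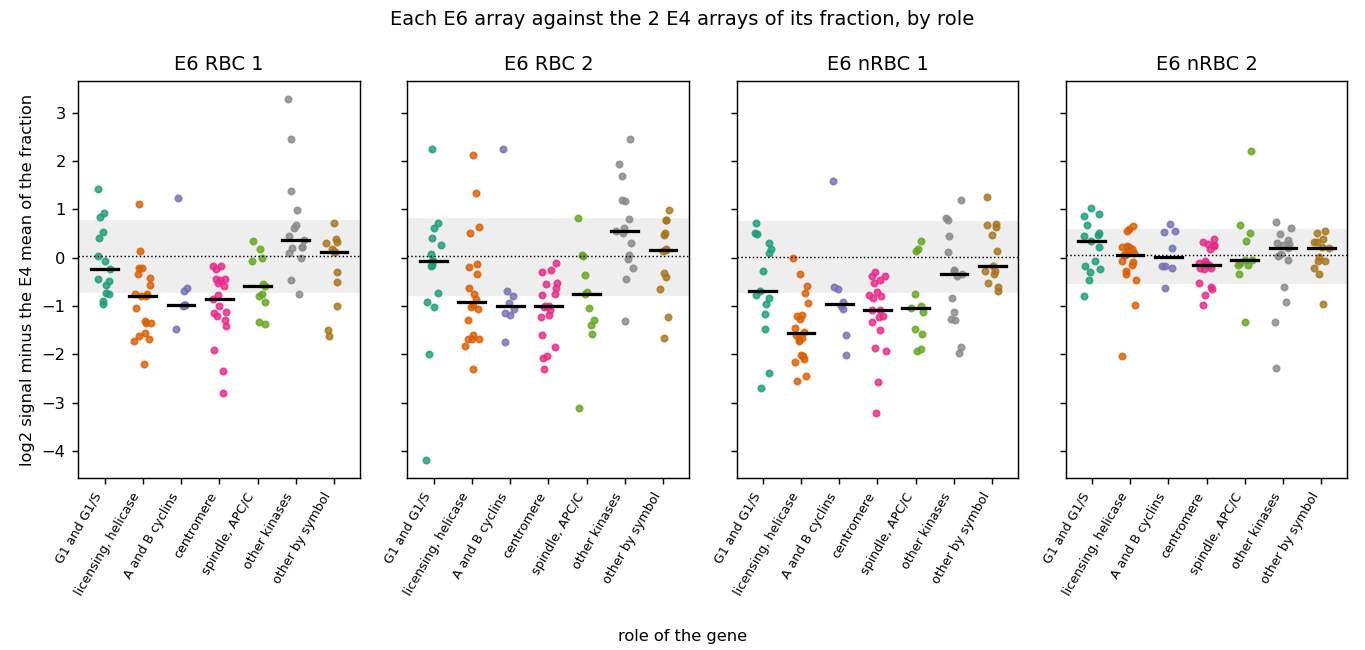
Log2 signal of each member on each E6 array minus the mean of the 2 E4 arrays of the same fraction, by role, with group medians as lines and the interquartile range of all probe sets as a grey band. On both E6 RBC arrays and the first E6 nRBC array the medians of the 4 replication and mitosis groups lie below 0, while the second E6 nRBC array centres near 0, with a median of -0.06 over the 58 genes.

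In the replication group, 14 of 20 genes were lower on both E6 RBC arrays (70%, beside 19.7% of all probe sets), with a median of -0.78. Without quantile normalization 13 were lower (65%, beside 13.9%). The helicase subunit MCM3 had log2 signals of 7.12 and 7.65 on E4 RBC and 5.78 and 5.72 on E6 RBC, a difference of -1.64, and MCM5 had 8.83 and 9.61 against 7.49 and 8.17, a difference of -1.38. MCM2 had 9.90 and 10.41 against 8.80 and 9.30. These gaps between stages were larger than the gap between the 2 arrays of either stage. ORC2, a subunit of the origin recognition complex, showed the largest stage difference of the group, with 7.58 and 7.95 on E4 RBC and 5.57 and 6.08 on E6 RBC (-1.94). ORC1, a subunit that binds ATP, had 7.78 and 8.81 against 6.61 on both arrays (-1.68).

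CDC45 (11.35 and 11.36 against 10.95 and 10.39) and the clamp loader subunit RFC4 (11.07 and 10.87 against 10.40 and 9.95) were lower by smaller steps. RFC2 and RFC3 differed by -1.32 and -1.69, and RFC3 was Present on both E4 RBC arrays and neither E6 RBC array. ORC5 differed by -1.52 but was Present on no RBC array, and ORC3 differed by -0.21. MCM9, a helicase subunit used in recombination, was at 6.94 and 7.17 against 7.20 and 6.94.

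For a few members the 2 arrays of a group differed by more than the stages did. The chosen MCM6 probe set had 8.68 and 11.03 on E4 RBC and 8.50 and 11.19 on E6 RBC, so that the low-spike arrays were the high ones at both stages. Its 2 further probe sets that were Present on all 8 arrays had stage differences of -2.13 and -1.20 in RBC. MCM10 and the elongation kinase CDK9 also ran with the low-spike arrays, with 4.89 and 7.16 against 4.73 and 8.15 for MCM10 and 7.98 and 9.09 against 7.79 and 9.08 for CDK9. The part of the spike difference in these values was not tested.

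The A and B cyclins and mitotic kinases were lower in 7 of 8 cases (87.5%, beside 19.7% of all probe sets), with a median of -1.04. Without quantile normalization 6 were lower (75%, beside 13.9%). Cyclin B1 (CCNB1), the partner of CDK1 at the entry into mitosis, had 11.88 and 11.72 on E4 RBC and 10.82 and 10.61 on E6 RBC (-1.09). Cyclin A2 (CCNA2) had 9.41 and 9.28 against 8.36 and 8.20 (-1.06), and CDK1 itself 11.82 and 11.79 against 11.18 and 11.02 (-0.71). In all 3 the gap between the arrays of a stage was well inside the stage difference. AURKB, the kinase of the chromosomal passenger complex, had 11.94 and 11.75 against 10.86 and 10.78 (-1.03), PLK4 had 8.74 and 8.52 against 7.94 and 6.88 (-1.22), and PLK1 differed by -0.83. CCNB3 was Present on both E4 RBC arrays and neither E6 RBC array and differed by -1.2. CCNA1 was the 1 gene on the other side, at 4.27 and 2.57 against 4.65 and 5.66, and was not detected on any array.

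Of the 19 centromere proteins, 18 were lower on both E6 RBC arrays (94.7%, beside 19.7% of all probe sets), with a median of -0.98. Without quantile normalization 15 were lower (78.9%, beside 13.9%). The largest stage differences were those of CENPX, with 6.37 and 6.40 on E4 RBC against 3.59 and 4.30 on E6 RBC (-2.44), and of CENPN, which binds the CENPA nucleosome, with 7.29 and 6.99 against 4.80 and 5.10 (-2.19). CENPX was Present on both E4 RBC arrays and on neither E6 RBC array, while all 4 nRBC arrays detected it. CENPJ, which builds centrioles in spite of its name, differed by -1.80. CENPS and CENPW, which join CENPX and CENPT in the histone-fold complex, differed by -0.39 and -1.13, and CENPF, of the outer kinetochore, by -1.09. CENPL, the partner of CENPN, was the 1 whose arrays overlapped, at 8.55 and 8.85 against 7.70 and 8.59.

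Of the 11 spindle checkpoint and APC genes, 8 were lower (72.7%, beside 19.7% of all probe sets), with a median of -0.84. With median scaling 6 were lower and 2 higher (54.5% and 18.2%, beside 11.4% and 31.9% of all probe sets). Their median was then -0.49, beside 0.44 for all probe sets. The checkpoint kinase BUB1 had 10.84 and 11.01 on E4 RBC and 10.17 and 9.54 on E6 RBC (-1.07), BUB1B differed by -1.31, and BUB3 had 12.07 and 12.16 against 11.53 and 11.41 (-0.65). CDC20, the APC activator at anaphase, had 9.22 and 8.80 against 7.64 and 7.43 (-1.47). Of the APC subunits, CDC16 differed by -0.21 and CDC27 by 0.01. CDC26 was Present on both E4 RBC arrays and neither E6 RBC array, at means of 6.71 and 5.88 (-0.84). Without quantile normalization its arrays overlapped. CDC20B, a relative of CDC20, was Present on no array. CDC14B, among the lower genes (-1.83), and CDC14A, which was higher (0.58), were Present on no blood array.

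For the other 43 members the direction depended on the scaling. In RBC 7 of them were lower and 12 higher on both E6 arrays (16.3% and 27.9%, beside 19.7% and 19.1% of all probe sets), with a median of 0.07. Without quantile normalization 9 were lower and 3 higher (20.9% and 6.98%, beside 13.9% and 9.01% of all probe sets). Their median was then -0.35, beside -0.08 for all probe sets. Among the 15 transcription-linked and other kinases 0 were lower and 7 higher (46.7%), with a median of 0.42. Without quantile normalization 2 were lower and 2 higher (13.3% each), with a median of 0.18. In the series matrix 2 were lower and 6 higher (13.3% and 40%, beside 21.1% and 17.4% of all probe sets). Most of the 7 were not detected, and of the 5 kinases Present on all 8 arrays only CDK19, a kinase of the Mediator complex, was higher, with 9.92 and 10.20 on E4 RBC and 10.27 and 10.67 on E6 RBC. CDK7, which activates other CDKs and is part of TFIIH, differed by -0.10, CDK13, an elongation kinase, by 0.07, and CDC2L1 by -0.01. Of the genes that only the symbol placed in the list, CDC34, a ubiquitin-conjugating enzyme, had 10.45 and 10.52 against 10.66 and 11.47 (0.58), and the export factor MCM3AP and the cyclin D-binding protein CCNDBP1 differed by 0.43 and 0.39. Without quantile normalization CDK19 (-0.05), CDC34 (0.17), MCM3AP (-0.05) and CCNDBP1 (-0.06) no longer had separate arrays.

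In nRBC the stage difference rested on 1 array. Both E6 arrays lay below both E4 arrays for 23 of the 58 replication and mitosis genes (39.7%), against 16.1% of all probe sets, or for 37 (63.8%), against 34.0%, without quantile normalization, and for 17 of the 42 Present on all arrays (40.5%), against 14.1%. The median difference was -0.54. But the first E6 nRBC array alone lay at a median of -1.16 from the E4 nRBC mean, and the second at -0.06. On the first, 53 of 58 genes were below both E4 arrays (91.4%), beside 36% of all probe sets and 43.2% of those Present on all 8 blood arrays. On the second, 24 of 58 were (41.4%), nearer to the 32.8% of all probe sets and 26.5% of those Present. Within arrays of like spike signal, against the first E4 nRBC array, the medians were -1.11 and -0.13. For 48 of the 58 genes (82.8%) the first E6 nRBC array had the lowest signal of the nRBC arrays. This was so for 28.9% of all probe sets and 39.3% of those Present on all 8 blood arrays.

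The same array stood apart in other ways. It carried the high EF1A ratio and dap signal given above, and was above the other 3 nRBC arrays for 6 of the 8 red cell markers, all but LMO2 and TAL1, and for 8 of the 9 cardiac markers, all but RYR2. Its summed red cell level was 15.36, against 14.80, 14.88 and 14.76, and its summed cardiac level 12.14, against 10.53, 10.02 and 10.58. It was also the highest for 4 of 7 thrombocyte and leukocyte, 3 of 6 endothelial and 3 of 6 fibroblast markers. The share of all probe sets that were highest on this array was not counted, so these marker counts have no background beside them. The part of these in the low signals of the cell cycle genes was not tested. No result on nRBC at E6 was free of this array, since the group holds only 1 other array.

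Single genes show how the 2 E6 nRBC arrays differed. CCNB1 had 12.03 and 11.79 on E4 nRBC and 10.32 and 11.70 on E6 nRBC. AURKB had 11.56 and 11.40 against 9.46 and 11.69, and MCM2 had 10.53 and 10.54 against 9.00 and 11.12. In each the second E6 array was near or above the E4 arrays, while the first was lower by more than 1 log2 unit. ORC1 (8.06 and 7.89 against 5.54 and 7.83), CENPN (6.33 and 5.81 against 2.85 and 5.91) and BUB1 (10.72 and 10.16 against 8.51 and 10.78) showed the same. CENPX lay lower on both, with 7.15 and 7.81 on E4 nRBC against 6.16 and 6.51.

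The stage differences of the fractions were set against each other directly. Their difference, nRBC minus RBC, was positive for 44 of the 58 genes with a median of 0.32, and none was called (limma, lowest adjusted p of any probe set 0.409). It was negative for 24.1% of these genes, beside 49.5% of all probe sets, whose median was 0.01. It was 1.42 for ORC2, 1.11 for E2F6, 1.01 for CENPF and 0.95 for PLK4, and -1.53 for the chosen MCM6 set, -1.0 for CENPL and -0.74 for CDK7. With 1 of the E6 nRBC arrays low and the other not, a stage difference that is smaller in nRBC than in RBC was not shown.

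**Figure D5:**
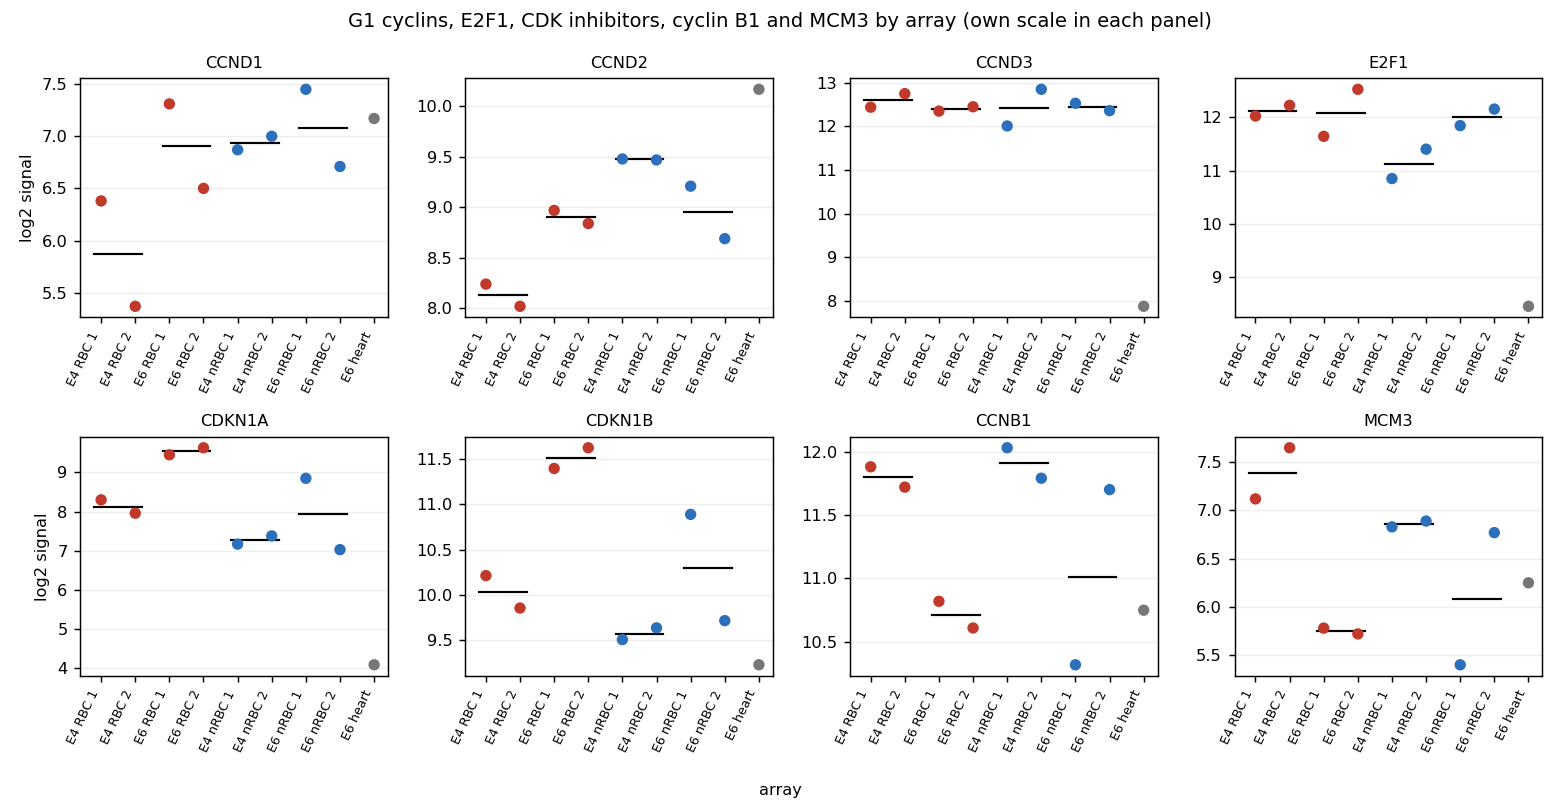
Log2 signals of CCND1, CCND2, CCND3, E2F1, CDKN1A, CDKN1B, CCNB1 and MCM3 on each array, with group means as lines and a scale of its own in each panel. CCND1, CCND2, CDKN1A and CDKN1B lie higher on both E6 RBC arrays than on both E4 RBC arrays (in the series matrix CCND1 and CCND2 overlap, and CCND2 also without quantile normalization), CCNB1 and MCM3 lie lower, and CCND3 and E2F1 lie above the heart on every blood array.

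The G1 genes did not move as a block: on both E6 RBC arrays 4 of 15 were lower and 2 higher (26.7% and 13.3%, near the 19.7% and 19.1% of all probe sets). The sign of their median depended on the scaling, at -0.11 after quantile normalization and 0.06 after median scaling. The medians of all probe sets were 0.02 and 0.44. The 2 higher were the D cyclins CCND1 and CCND2, which carry growth signals to the cell cycle. CCND2 had 8.24 and 8.02 on E4 RBC, 8.97 and 8.84 on E6 RBC, 9.48 and 9.47 on E4 nRBC and 9.21 and 8.69 on E6 nRBC. Thus it lay higher in RBC and lower in nRBC at E6, with stage differences of 0.77 and -0.53, and the difference between these, -1.30, did not pass (unadjusted p = 0.0985, adjusted p = 1, limma). In RBC the CCND2 difference was 0.30 without quantile normalization and 0.37 in the series matrix, with overlapping arrays in both. A second CCND2 probe set, Present on all 8 arrays, had stage differences of 0.88 and -0.31. CCND1 had 6.38 and 5.37 against 7.31 and 6.50 in RBC, a difference of 1.03 (0.79 in the series matrix, where its arrays overlapped), and was Present on 3 of 4 RBC arrays.

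CCND3, a D cyclin with a known part in red cell maturation in the mouse, did not differ by fraction or stage beyond the spread of its arrays. It had 12.44 and 12.75 on E4 RBC, 12.35 and 12.45 on E6 RBC, 12.01 and 12.85 on E4 nRBC and 12.53 and 12.36 on E6 nRBC. The heart was at 7.88, a log2 difference of -4.56 from the nRBC mean. A second CCND3 probe set had 6.60 to 7.90 in blood and 1.31 in the heart. Cyclin E2 (CCNE2) had 7.84 and 7.85 on the E4 RBC arrays, which detected it. The E6 RBC arrays did not, at 7.41 and 6.84, a difference of -0.73. CDK6 was Present on 1 blood array, the second of E6 RBC at 7.91, and lay between 4.68 and 6.45 on the others.

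Of the E2F factors, the activator E2F1 had 12.02 and 12.22 on E4 RBC, 11.64 and 12.52 on E6 RBC, 10.85 and 11.40 on E4 nRBC and 11.84 and 12.15 on E6 nRBC. In nRBC both E6 arrays lay above both E4 arrays, by 0.87. E2F6, a repressor that acts with Polycomb proteins, was also higher on both E6 nRBC arrays, by 0.70, as were CDC34, by 0.79, and CDK13, by 0.70. Without quantile normalization, where the median of all probe sets in nRBC was -0.67, the 4 differences were 0.18 for E2F1, -0.09 for E2F6, 0.02 for CDC34 and -0.10 for CDK13, and the arrays of each overlapped. E2F5, which works with the retinoblastoma relatives, had 8.75, 8.73, 8.68 and 8.57 in RBC and 8.14, 7.63, 8.07 and 7.72 in nRBC, with no overlap between the fractions, a difference of -0.79 and an adjusted p of 0.214 in limma. E2F6 and the atypical repressor E2F8 differed between the fractions by -0.94 and -0.81, and E2F3, Present on 1 array of each fraction, by -1.36, and none of these passed (adjusted p from 0.252 to 0.317, limma).

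Further genes of the same pathway that the symbol rule leaves out, such as the DNA polymerases, condensins, kinesins and CDK inhibitors, were read from a separate list of 85 genes, of which 73 were measured. Between the fractions 0 were called higher and 1 lower, CDKN2A, beside the 4.56% and 0.809% of all probe sets given above. In mammals this gene encodes an inhibitor of CDK4 and CDK6 and the p53 regulator ARF, and its chicken product was not examined here. CDKN2A had 8.92 and 8.43 on E4 RBC, 8.20 and 8.45 on E6 RBC, 7.29 and 6.40 on E4 nRBC, 7.03 and 6.24 on E6 nRBC and 3.98 in the heart. Every nRBC array was below every RBC array, with a log2 difference of -1.76 (SE 0.38, adjusted p = 0.0302, limma).

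On both E6 RBC arrays 53 of the 73 genes were lower (72.6%) and 6 higher, with a median of -0.83, beside the 19.7% lower and 19.1% higher of all probe sets. The condensin SMC2 had 10.77 and 11.00 on E4 RBC and 9.22 and 9.26 on E6 RBC, and the mitotic kinesin KIF20A had 8.28 and 8.34 against 6.88 and 6.16. Among the 6 higher genes were the CDK inhibitors CDKN1A (p21) and CDKN1B (p27), named after their values were seen. The other genes with a CDKN symbol did not all go this way. CDKN3 was lower on both E6 RBC arrays (-0.59), and the arrays of CDKN2A overlapped (-0.35). CDKN2B and CDKN2C were also higher but were Present on no blood array. CDKN1B had 10.21 and 9.85 on E4 RBC and 11.40 and 11.63 on E6 RBC, a difference of 1.49 (unadjusted p = 0.0342, adjusted p = 0.581, limma), and CDKN1A had 8.30 and 7.96 against 9.45 and 9.63, a difference of 1.41. In nRBC the first E6 array had 8.85 for CDKN1A and 10.89 for CDKN1B, and the second had 7.03 and 9.71, near the 7.17 and 7.38 and the 9.50 and 9.63 of the E4 arrays.

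Against the single heart array, which was untested, the members were mostly detected in both tissues. The heart lay below every blood array for 35 of the 101 members (34.7%), against 18.2% of all probe sets, and among those Present on all 8 blood arrays for 27 of 64 (42.2%), against 32.6%. Of the 8 G1 genes Present on all 8 arrays, 7 were below every blood array in the heart, among them E2F1 at 8.46 and CCND3, and CCND2 was above every blood array at 10.17. For 7 members the heart was above every blood array (6.93%, against 14.5% of all probe sets): CCND2, CENPV, CDK14, CDK17, PLK2, CDC37 and CDK2AP1. MCM2, at 9.81, and CCNB1, at 10.75, lay within the range of the blood arrays.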

How the data were processed

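RNA pooled from chick embryos was hybridized to Affymetrix chicken arrays. The authors amplified 100 ng of RNA per array in 2 cycles and deposited MAS5 intensity values with a detection call per probe set, unscaled between arrays. Which version of MAS5 was run is not stated in the sources used. The deposited series matrix, used as an alternative, was found to be the log2 of these values less the array mean (largest deviation 1.3e-06).

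From 38535 probe sets, 96 controls were removed. The 11 signals of 0 on the blood arrays became 0.1. After log2, the 8 blood arrays were quantile normalized together, and the heart, which was not tested, was mapped onto their quantiles. limma 3.58.1 (R 4.3.3, lmFit with eBayes) was fitted to 4 nRBC and 4 RBC arrays for the fractions and to the 4 group means for stages and for each stage's fraction difference. The Benjamini-Hochberg adjustment covered 38439 probe sets, with a threshold of 0.05 and no detection filter. limma stands in for the SAM of the study's methods, since it gives a p for each probe set with few arrays. The fits were tested on simulated data. By the study's methods duplicate arrays are separate pools, but it is not known if an RBC and an nRBC array shared embryos.

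Where no RBC array detected a probe set, its size between the fractions is given as "at least N-fold". The array limits used were 2.18 to 3.11 (log2), which is not a strict bound for a single probe set. The undetected E6 RBC signals of CCNB3, CCNE2, CDC26, CENPX and RFC3 lay above these limits, so only log2 differences are given for them. The number of arrays limits the precision. Levels of different probe sets were not compared, but the summed marker levels add signals of several probe sets, and the brightest weigh most in them.

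Named with values were the members that passed a test, in each role group up to 4 with the lowest p between the fractions and the 2 with the highest mean, for each stage contrast the 4 with the largest difference in each direction among those Present in the higher group, and the main cyclins, CDKs and MCM genes. Others were chosen after their values were seen: further examples of a group, the PLK2 probe set, CDKN1A, CDKN1B, SMC2, KIF20A and the marker genes. The members, role groups and lists were chosen with earlier results of these data known. Alternatives were other scalings, offsets, filters, probe sets and tests, arrays left out, and the spike-in signal as a block. Sequences and coordinates were not used here.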

Additional observations from a re-analysis of the deposited data

Results flagged for a closer look

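Values far from the other 3 arrays of a fraction were looked for in 126 groups of 4 by Dixon's ratio, and chance alone gives about 1 in 20 such groups. There were 12. The first E6 nRBC array accounted for 8 of them. It was low for AURKB at 9.46 (other nRBC arrays 11.40 to 11.69), MCM3 at 5.40 (6.77 to 6.89), ORC5 at 5.45 (6.59 to 6.72), CENPN at 2.85 (5.81 to 6.33) and CDK18 at 1.33 (2.54 to 2.59), which was Present on no array. It was high for CDK13 at 9.19 (7.98 to 8.19). It was low for the median over the A and B cyclins and mitotic kinases at 8.51 (9.93 to 10.00) and over the spindle checkpoint and anaphase promoting complex genes at 7.74 (8.84 to 9.06).

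The second E4 nRBC array was high for CCNB3 at 8.69 (7.56 to 7.67), and the second E6 nRBC array low for CDK12 at 2.97 (4.99 to 5.30), a gene Present on no array. In RBC, the second E4 array was low for CDK14 at 0.72 (3.58 to 4.09), one of the 3 genes called between the fractions, and the first E6 array low for E2F6 at 8.57 (9.41 to 9.54).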

How the results depend on the processing

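The count of 3 members called between the fractions became 5 with 16 added before log2 or with a filter that asked for 2 blood arrays with a Present call (CENPM and E2F5 lower besides), 1 (CDC37) with the replicate block (adjusted p = 0.0687 for CDK2AP1 and 0.11 for CDK14) and at an adjusted p under 0.01, 2 with the spike signal as a block (without CDK14), and 0 within the high-spike arrays and 0 within the low-spike arrays, splits chosen after seeing the data. It was 15 by the methods' t-test unadjusted (3 higher and 12 lower, and 2 after Benjamini-Hochberg), 0 by SAM at delta 2.5 and 3 at 0.9. The shares of all probe sets by that t-test are not given here, so the 15 are not read as a result about the members. By limma, which is another test, 10.2% of all probe sets were higher and 9.39% lower at an unadjusted p under 0.05. Shares of all probe sets are not given for the other settings, so these counts show only how the calls moved. The count ranged from 1 to 3 with 1 array left out, and was 1, CDC37, without the first E4 nRBC or the first E6 nRBC array. With 4 group means, CDK2AP1 had an adjusted p of 0.0506 and CENPX passed. Deviations of same-numbered RBC and nRBC arrays correlated at 0.08 (E4) and -0.05 (E6) over all probe sets and at 0.41 and -0.25 over those Present on all blood arrays, so the numbers were not taken to pair them. At E4 the count of 0 became 1 without quantile normalization and with the series matrix, 2 with median scaling, the detection filter or an intensity trend, and 4 with 16 added. At E6 it became 1 with 16 added, the detection filter, the trend or the probe set most often Present. The stage comparisons gave 0 members under every setting run. The members' median between the fractions went from -0.27 to 0.12 without quantile normalization, where that of all probe sets went from -0.20 to 0.02, and ranged from -0.39 to 0 with 1 array left out. The stage median of the replication and mitosis genes in RBC, -0.92, was -1.39 without quantile normalization and -1.32 in the series matrix, and -0.96 to -0.79 with 1 array left out. In nRBC it went from -0.54 to -1.23 without quantile normalization (all probe sets -0.67), and from -1.15 to -0.06 with 1 array left out, -0.06 being without the first E6 nRBC array. The cause was not tested. Of 53 named members not called, 20 changed sign under at least 1 setting, and no called value reversed.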
